A study of Mus musculus with 10 samples.

Results

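Ribosome biogenesis factors are the proteins that make and assemble ribosomes, and 43 mouse genes for them were examined across stimulated and resting CD4-positive spleen cells of NOD and B10 mice. The genes were taken by symbol from a list chosen with earlier results of these data known. Each was represented by its probe set with 1 gene symbol and the highest mean over all arrays. This gave 42 measured members among 19938 genes on the array. Noc2l had no such probe set and was not analysed here.

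Ribosomes are built in the nucleolus. RNA polymerase I transcribes the precursor of the ribosomal RNAs, small nucleolar ribonucleoproteins (snoRNPs) guide its chemical modification, and large assemblies fold and cut it into the RNAs of the small and the large ribosomal subunit. Resting T cells hold few ribosomes, and antigen-activated T cells enlarge their nucleoli and increase ribosome production before they divide.

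The cells came from the spleens of female mice of 8 weeks, taken with CD4 magnetic beads, and each RNA was measured on 1 Affymetrix array. NOD mice (genotype NODk) were represented by 2 arrays of cells treated for 4 hours with PMA at 10 ng/ml and ionomycin at 1 uM (T1) and by 3 arrays of unstimulated cells (T0). B10 mice (genotype B10Br) were likewise represented by 2 T1 and 3 T0 arrays. PMA activates protein kinase C and ionomycin raises intracellular calcium, which together imitate signals of the T cell receptor and its coreceptor. The labels call T0 the basal state, yet the protocol can also be read as 4 hours of culture without the drugs, so the handling of T0 cells is unclear. The arrays are labelled biological replicates, but nothing says which animal each came from or whether animals were pooled, so the spread between them may be partly technical. Treating the cells in culture with drugs limits the comparison as a model of antigen stimulation, because antigen receptors were not engaged.

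Values are log2 intensities after robust multi-array averaging (RMA), a procedure that corrects background, brings arrays to a common distribution and summarises probes. A difference of 1 is a 2-fold change, and changes of genes near background are understated. The scaling means that every value is relative to the rest of the same array, so a change in total RNA per cell cannot be seen. Arrays of the same group correlated with Pearson's r of 0.985 to 0.993 over all probe sets, and arrays of different groups with 0.943 to 0.984. The T cell genes Cd4 and Cd3e averaged 11.0 and 10.4 in NOD at T0, and 11.1 and 10.4 in B10 at T0, against array medians of 6.18 to 6.23. Depth has no meaning for arrays, and their small number limits precision.

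Stimulation raised nearly the whole set in both strains. With limma's moderated test and Benjamini-Hochberg adjustment over all genes (threshold 0.05), 42 of 42 members rose in NOD, where 16.1% of all genes rose. In B10, 41 of 42 rose, where 13.7% of all genes rose. Each of the 42 had a positive value in both strains, while 19.5% of all genes fell in NOD and 18.1% in B10. The median change of the members was 1.57 in NOD and 1.65 in B10 on the log2 scale, while the median over all genes was 0.081 in NOD and 0.031 in B10. Both strains together called 41 members higher, against 10.2% of all genes. Because the list was chosen with earlier results known, the shares of all genes are given as description only.

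At least a 2-fold rise that also passed the test was seen for 34 members in NOD (3.36% of all genes) and 35 in B10 (4.09% of all genes). For 42 of 42 members in NOD, each T1 array lay above each T0 array, which was true of 31% of all genes. The same held for 42 of 42 members in B10, against 26.8% of all genes. Relative to each gene's mean over all 10 arrays, the median member stood at 0.94 and 0.95 on the NOD T1 arrays, and at -0.54, -0.75 and -0.64 on the NOD T0 arrays. It stood at 1.01 and 0.96 on the B10 T1 arrays, and at -0.65, -0.65 and -0.67 on the B10 T0 arrays. The 4 T1 arrays thus lay close together for the set, and so did the 6 T0 arrays.

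**Figure D1:**
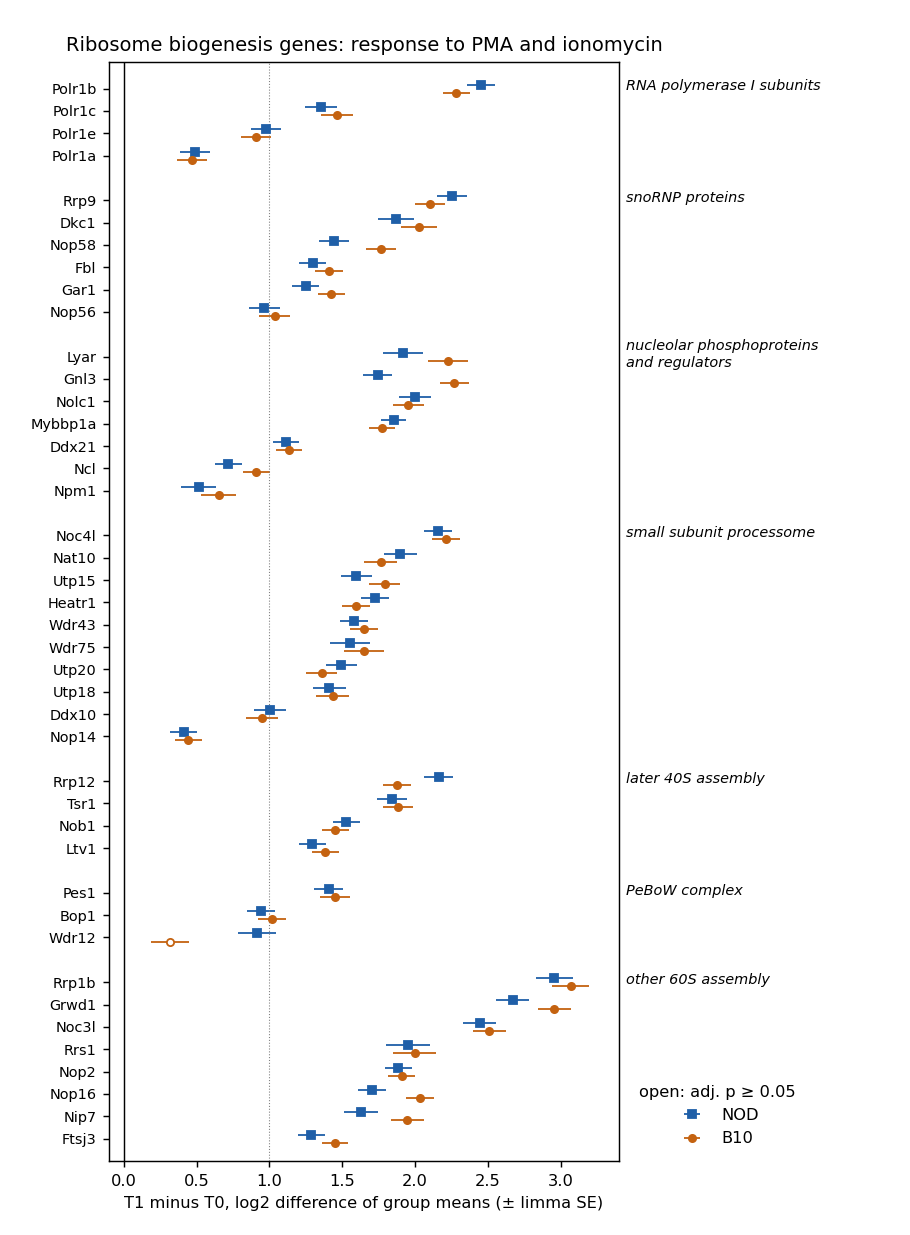
Change with stimulation (T1 minus T0, log2 difference of group means, with limma's standard error) of the 42 measured members, ordered within roles, with NOD as squares and B10 as circles; the dotted line marks a 2-fold rise. Changes run between 0.41 (Nop14) and 2.96 (Rrp1b) in NOD and between 0.32 (Wdr12, the open symbol, not past the threshold) and 3.07 (Rrp1b) in B10.

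The start regions of the members were searched for a DNA feature that the choice of genes had not used, and the windows are shown because the members rose together. RefSeq windows of 300 bases around gene starts, 250 before and 50 from the start on (assembly GRCm38.p6, the sequence of C57BL/6J mice and not of NOD or B10), were found for 38 of the 43 listed genes. The E-box CACGTG (the same on both strands) is the palindromic sequence that Myc and its partner Max bind. It was in the window of 9 of these 38 genes (23.7%), and in 7.15% of all 32851 windows. Those 32851 windows were not matched to the members for expression or base composition. Grwd1, Nop2, Tsr1, Mybbp1a and Pes1 are given here as examples, from 100 bases before the start to 50 bases from the start on, with the E-box in capitals.
Grwd1, chr7:45830740-45830889, minus strand: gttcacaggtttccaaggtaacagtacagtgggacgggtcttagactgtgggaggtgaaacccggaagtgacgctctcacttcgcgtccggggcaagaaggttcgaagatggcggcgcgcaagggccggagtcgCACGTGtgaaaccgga
Nop2, chr6:125131783-125131932, plus strand: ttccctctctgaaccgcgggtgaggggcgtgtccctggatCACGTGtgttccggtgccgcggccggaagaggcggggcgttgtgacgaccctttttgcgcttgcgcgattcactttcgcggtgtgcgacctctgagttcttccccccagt
Tsr1, chr11:74897980-74898129, plus strand: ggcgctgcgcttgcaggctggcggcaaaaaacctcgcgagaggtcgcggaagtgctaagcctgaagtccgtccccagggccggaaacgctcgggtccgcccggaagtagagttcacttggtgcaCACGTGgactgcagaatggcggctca
Mybbp1a, chr11:72441227-72441376, plus strand: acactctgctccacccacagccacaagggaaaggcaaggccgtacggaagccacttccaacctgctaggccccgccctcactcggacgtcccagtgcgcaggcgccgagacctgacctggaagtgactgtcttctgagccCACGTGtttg
Pes1, chr11:3963875-3964024, plus strand: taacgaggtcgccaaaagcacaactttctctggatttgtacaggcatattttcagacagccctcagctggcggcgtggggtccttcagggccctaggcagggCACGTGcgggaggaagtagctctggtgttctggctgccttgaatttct

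In Nop2 the E-box began 60 bases before the start. In Pes1 it began at base 3 of the transcribed sequence, in Tsr1 at base 25, in Grwd1 at base 35 and in Mybbp1a at base 41. Ltv1, Utp18, Utp20 and Wdr43 also held the E-box. Medians were alike with and without the match: members with it had a median change of 1.58 in NOD and 1.65 in B10, and the 28 measured members with a window and no match had medians of 1.57 in NOD and 1.71 in B10. The start regions of Polr1b and Noc4l, both with larger responses than Pes1, are shown as examples of windows without the E-box.
Polr1b, chr2:129100896-129101045, plus strand: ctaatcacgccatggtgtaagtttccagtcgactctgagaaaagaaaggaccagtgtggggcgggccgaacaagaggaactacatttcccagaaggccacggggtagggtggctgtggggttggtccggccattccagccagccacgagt
Noc4l, chr5:110653333-110653482, minus strand: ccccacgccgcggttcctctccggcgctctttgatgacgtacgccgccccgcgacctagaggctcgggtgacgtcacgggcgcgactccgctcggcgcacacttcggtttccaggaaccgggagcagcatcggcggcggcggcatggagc

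A second motif, CCGGAAG, which ETS family factors bind, was searched on both strands. It was in 14 of the 38 members' windows (36.8%) and in 8.86% of all windows, which were again not matched to the members. Neither motif contains the other, and Grwd1, Ltv1, Nop2, Tsr1 and Utp18 held both. A match describes these letters only, and binding was not measured.

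RNA polymerase I subunits rose to unequal extents. Polr1b encodes the second largest subunit of the enzyme. Its log2 intensity was 10.38 and 10.38 on the NOD T1 arrays, against 7.96, 7.83 and 7.97 on the NOD T0 arrays. On the B10 T1 arrays it was 10.57 and 10.52, against 8.34, 8.19 and 8.25 on the B10 T0 arrays. In both strains the T1 arrays lay above 10 and the T0 arrays below 9. The rise was 5.48-fold in NOD (2.46 ± 0.09, limma SE, adjusted p = 3.73e-09) and 4.87-fold in B10 (2.28 ± 0.09, adjusted p = 5.32e-09). Polr1c, which the enzyme shares with RNA polymerase III, rose by 1.36 in NOD and 1.47 in B10, and Polr1e by 0.98 and 0.91. Polr1a, the largest and catalytic subunit, rose least, by 0.49 ± 0.10 in NOD (adjusted p = 0.00215) and 0.47 ± 0.10 in B10 (adjusted p = 0.00294). Its values were 9.35 and 9.35 in NOD at T1 against 8.99, 8.79 and 8.79 at T0, and 9.26 and 9.29 in B10 at T1 against 8.74, 8.74 and 8.93 at T0.

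All 6 snoRNP proteins rose in both strains, with a median of 1.37 in NOD and 1.60 in B10. Rrp9, which belongs to the snoRNP that takes part in small subunit RNA cleavage, had the largest response of this role. Rrp9 stood at 10.02 and 10.11 in NOD at T1, against 7.93, 7.85 and 7.66 at T0. In B10 it stood at 10.00 and 10.05 at T1, against 7.88, 7.92 and 7.95 at T0. The T1 and T0 arrays were separated by about 2 units in each strain, a rise of 4.77-fold in NOD (2.25 ± 0.10, adjusted p = 8.20e-09) and 4.30-fold in B10 (2.11 ± 0.10, adjusted p = 1.31e-08). Dkc1, the enzyme that makes pseudouridine in the box H/ACA class, rose by 1.87 in NOD and 2.03 in B10, and its partner Gar1 by 1.25 and 1.43. Among the core proteins of the box C/D class, the methyltransferase Fbl rose by 1.30 in NOD and 1.41 in B10, Nop58 by 1.44 and 1.77, and Nop56 by 0.97 and 1.04.

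Fbl had 2 probe sets, and the dimmer one, not used above, rose less (0.91 in NOD, adjusted p over all probe sets = 0.000943, and 0.95 in B10, adjusted p = 0.000701, both by limma). Its values were 9.66 and 10.09 in NOD at T1 against 8.90, 9.0 and 8.99 at T0, and 9.87 and 10.02 in B10 at T1 against 8.96, 8.88 and 9.15 at T0. Both probe sets therefore rose, by different amounts. Whether the brighter one lies over Fbl itself or over a processed copy could not be read from the sources used here.

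The 7 nucleolar phosphoproteins and regulators rose in both strains, with a median of 1.75 in NOD and 1.77 in B10. Lyar, a zinc finger protein of the nucleolus, was at 10.20 and 10.03 in NOD at T1, against 8.43, 8.01 and 8.16 at T0. In B10 it was at 10.35 and 10.28 at T1, against 8.12, 8.25 and 7.90 at T0. No T0 array came within 1 unit of a T1 array, and Lyar rose 3.77-fold in NOD (1.92 ± 0.14, adjusted p = 2.62e-07) and 4.68-fold in B10 (2.23 ± 0.14, adjusted p = 7.55e-08). Gnl3, the nucleolar GTPase nucleostemin, rose by 1.75 ± 0.10 in NOD and 2.27 ± 0.10 in B10. Nolc1, a chaperone of snoRNPs, rose by 2.0 in NOD and 1.95 in B10. Mybbp1a, a nucleolar binding partner of transcription factors, rose by 1.86 in NOD and 1.77 in B10. The helicase Ddx21 rose by 1.11 in NOD and 1.13 in B10.

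The abundant nucleolar proteins nucleolin and nucleophosmin changed less. Ncl, for nucleolin, rose 1.65-fold in NOD (0.72 ± 0.09, adjusted p = 4.82e-05) and 1.88-fold in B10 (0.91 ± 0.09, adjusted p = 5.93e-06). Npm1, for nucleophosmin, was at 11.51 and 11.58 in NOD at T1 against 11.18, 10.94 and 10.96 at T0, and at 11.77 and 11.69 in B10 at T1 against 11.15, 11.23 and 10.87 at T0. The T1 arrays lay above the T0 arrays in both strains, with a change of 0.52 ± 0.12 in NOD (adjusted p = 0.00465) and 0.65 ± 0.12 in B10 (adjusted p = 0.000854). A further 3 probe sets list Npm1 together with the predicted gene Gm15484, so their signal cannot be assigned to either gene. They changed by 0.22 to 0.28 in NOD, where none passed limma's test over all probe sets (adjusted p = 0.0851 to 0.143), and by 0.34 to 0.36 in B10, where all 3 passed (adjusted p = 0.0323 to 0.0368).

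The small subunit processome is the large particle that folds and cleaves the part of the precursor that becomes the small subunit RNA. All 10 of its listed factors rose in both strains, with a median of 1.57 in NOD and 1.62 in B10. Noc4l, which pairs with Nop14 in yeast, was at 10.65 and 10.62 in NOD at T1, against 8.58, 8.40 and 8.44 at T0. In B10 Noc4l was at 10.55 and 10.53 at T1, against 8.24, 8.39 and 8.34 at T0. The T1 arrays again stood apart from all T0 arrays, with a rise of 4.47-fold in NOD (2.16 ± 0.10, adjusted p = 7.48e-09) and 4.64-fold in B10 (2.21 ± 0.10, adjusted p = 6.64e-09).

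Nop14 itself rose least within this role, by 0.41 ± 0.09 in NOD (adjusted p = 0.00389) and 0.44 ± 0.09 in B10 (adjusted p = 0.00231). It was at 10.02 and 10.14 in NOD at T1 against 9.68, 9.67 and 9.65 at T0, and at 10.09 and 9.94 in B10 at T1 against 9.63, 9.56 and 9.54 at T0. Factors that bind the precursor early lay between these extremes: Heatr1 rose by 1.73 in NOD and 1.59 in B10, Utp15 by 1.60 and 1.79, Wdr43 by 1.58 and 1.65, and Wdr75 by 1.55 and 1.65. The remaining factors were the acetyltransferase Nat10 (1.90 in NOD, 1.76 in B10), the scaffold protein Utp20 (1.49 and 1.36), Utp18 (1.41 and 1.43) and the helicase Ddx10 (1.01 and 0.95).

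Factors that finish and export the small subunit rose in both strains, 4 of 4 in each. Rrp12, an export factor known from yeast, was at 10.20 and 10.07 in NOD at T1, against 7.97, 7.99 and 7.96 at T0. In B10 it was at 9.82 and 9.91 at T1, against 7.97, 7.89 and 8.09 at T0. The T0 arrays of both strains thus overlapped and the NOD T1 arrays were the highest. Its rise was 4.48-fold in NOD (2.16 ± 0.10, adjusted p = 7.92e-09) and 3.68-fold in B10 (1.88 ± 0.10, adjusted p = 2.04e-08). Tsr1, a GTPase-like assembly factor, rose by 1.84 in NOD and 1.88 in B10. Nob1, the nuclease that makes the last cut of the small subunit RNA, rose by 1.53 in NOD and 1.45 in B10. Ltv1, which accompanies the particle to the cytoplasm, rose by 1.29 in NOD and 1.38 in B10.

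The largest responses of all were among large subunit factors. The 8 measured members outside the PeBoW complex rose in both strains by at least 2-fold, with a median of 1.92 in NOD and 2.02 in B10. Rrp1b, a nucleolar protein of large subunit precursors, was at 9.72 and 9.73 in NOD at T1, against 6.94, 6.53 and 6.84 at T0. In B10 it was at 9.73 and 9.64 at T1, against 6.65, 6.73 and 6.47 at T0. The T0 arrays of both strains lay below 7 and all T1 arrays above 9, so that Rrp1b rose 7.76-fold in NOD (2.96 ± 0.13, adjusted p = 6.52e-09) and 8.39-fold in B10 (3.07 ± 0.13, adjusted p = 5.32e-09). Grwd1, a WD-repeat protein that escorts a ribosomal protein, rose 6.37-fold in NOD (2.67 ± 0.11, adjusted p = 5.99e-09) and 7.77-fold in B10 (2.96 ± 0.11, adjusted p = 2.52e-09). Noc3l, which in yeast takes part in moving large subunit precursors through the nucleus, rose by 2.44 in NOD and 2.51 in B10.

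Rrs1, needed in yeast to build the particle of the smallest ribosomal RNA into the large subunit, rose by 1.95 in NOD and 2.0 in B10. The RNA methyltransferases Nop2 and Ftsj3 rose by 1.89 and 1.29 in NOD, and by 1.91 and 1.45 in B10. Nop16 rose by 1.71 in NOD and 2.04 in B10, and the processing factor Nip7 by 1.63 in NOD and 1.95 in B10.

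**Figure D2:**
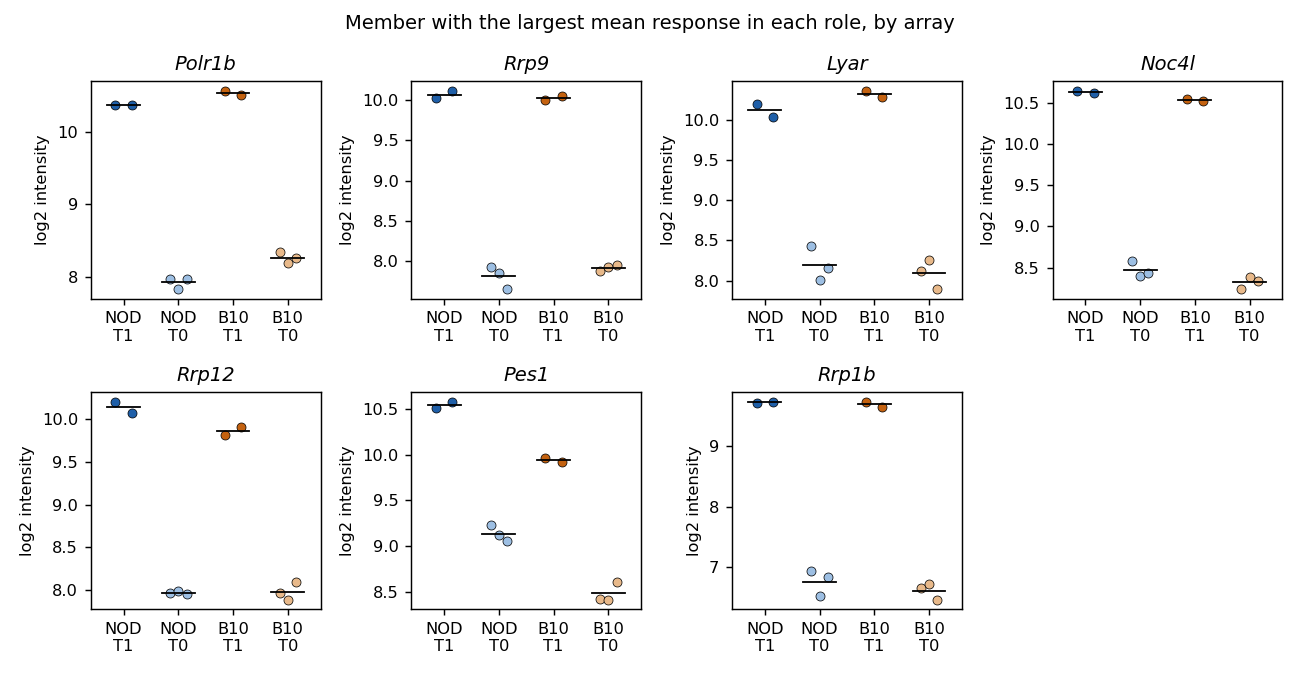
Log2 intensity on each array of the member with the largest mean response in each of the 7 roles, with 2 T1 and 3 T0 arrays per strain; bars are group means and each panel has its own vertical range. In all 7 genes each T1 array lies above each T0 array of its strain; Pes1 also differs between strains, with NOD higher at T1 and at T0.

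The PeBoW complex of Pes1, Bop1 and Wdr12 is needed for maturation of the large subunit RNAs, and 3 of its 3 genes rose in NOD and 2 of 3 in B10. Pes1 was at 10.51 and 10.58 in NOD at T1, against 9.23, 9.12 and 9.06 at T0. In B10 it was at 9.97 and 9.92 at T1, against 8.43, 8.42 and 8.62 at T0. The T1 arrays were higher in each strain, a rise of 2.65-fold in NOD (1.41 ± 0.10, adjusted p = 2.69e-07) and 2.73-fold in B10 (1.45 ± 0.10, adjusted p = 2.03e-07). Bop1 rose by 0.94 in NOD and 1.02 in B10.

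Wdr12 was the member that did not pass in B10. It was at 9.75 and 9.71 in NOD at T1, against 8.86, 8.92 and 8.67 at T0. In B10 it was at 9.83 and 9.72 at T1, against 9.46, 9.22 and 9.68 at T0. The B10 T1 arrays lay above the T0 arrays, the nearest by under 0.1 unit, while the NOD groups were well apart. The change was 1.88-fold in NOD (0.91 ± 0.13, adjusted p = 0.00011) and 1.25-fold in B10 (0.32 ± 0.13, adjusted p = 0.0895). Without B10 T0 replicate 3 the B10 value was 0.43 and passed (adjusted p = 0.0215). Over omissions of single arrays the B10 value ran from 0.20 to 0.43, and no other single omission gave a call. The second, dimmer probe set of Wdr12 also passed in NOD and not in B10. By limma it changed by 0.87 in NOD (adjusted p over all probe sets = 0.000787) and 0.13 in B10 (adjusted p = 0.55). On this probe set the B10 groups overlapped, with 8.49 and 8.49 at T1 against 8.32, 8.15 and 8.61 at T0. Whether the brighter probe set lies over Wdr12 itself or over a processed copy could not be read from the sources used here.

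The strains gave similar sizes of response. Across the 42 members, the changes in NOD and in B10 had a Pearson's r of 0.952 and a Spearman's rho of 0.940, as a description over genes that share arrays and are not independent. The change was larger in B10 for 29 members and in NOD for 13. The difference of the responses (NOD minus B10) was tested as an interaction, and with limma 0 of 42 members passed after adjustment, while 0.246% of all genes did. At an unadjusted p of 0.05, 4 members passed (9.52%), against 9.23% of all genes. These were Gnl3 (-0.52 ± 0.14, adjusted p = 0.214), Wdr12 (0.59 ± 0.19, adjusted p = 0.318), Nop16 (-0.33, adjusted p = 0.485) and Nop58 (-0.33, adjusted p = 0.522). The median interaction of the members was -0.060, against 0.014 over all genes. With every array shifted to the same 75th percentile these medians were -0.0020 and 0.073. A difference in response that misses the threshold in so few arrays is not shown to be absent.

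Few members differed between strains in the resting state. At T0, 1 of 42 was higher in NOD (3.44% of all genes were) and 2 were lower (2.35% of all genes were), so the share called was close to the background of 5.79% for both directions together. At an unadjusted p of 0.05, 6 members passed (15.8% of all genes did). Each NOD array lay above each B10 array for 7 members (11.1% of all genes) and below for 3 (11.7% of all genes). This balance turned with the scaling: with every array shifted to the same 75th percentile, 6 members lay above (10.5% of all genes) and 8 below (12% of all genes). The median difference was -0.0049, against -0.015 over all genes. Pes1 was higher in NOD at T0, with 9.23, 9.12 and 9.06 in NOD against 8.43, 8.42 and 8.62 in B10. The lowest NOD array lay above the highest B10 array, a difference of 1.56-fold (0.64 ± 0.09, adjusted p = 0.00128). Wdr12, its partner in the PeBoW complex, was lower in NOD, with 8.86, 8.92 and 8.67 in NOD against 9.46, 9.22 and 9.68 in B10. The groups did not overlap (-0.64 ± 0.12, adjusted p = 0.00694), and the second probe set of Wdr12 differed in the same direction (-0.85, adjusted p over all probe sets = 0.00527).

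Polr1b was lower in NOD at T0, with 7.96, 7.83 and 7.97 in NOD against 8.34, 8.19 and 8.25 in B10. The groups did not overlap, but the difference was small (-0.34 ± 0.08, adjusted p = 0.0344) and lost its call on omission of any of the 6 T0 arrays (values -0.37 to -0.29). Gnl3 was at 10.03, 10.01 and 9.90 in NOD against 9.58, 9.69 and 9.80 in B10, again with no overlap, and did not pass (0.29 ± 0.09, adjusted p = 0.0918). The call for Pes1 at T0 and that for Wdr12 held on omission of each array in turn. Whether sequence differences between the strains under the probes changed any of these signals was not tested.

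After stimulation, Pes1 alone differed between strains by the test. It was higher in NOD, with 10.51 and 10.58 in NOD against 9.97 and 9.92 in B10 (0.60 ± 0.11, 1.52-fold, adjusted p = 0.0112). Its strain difference was thus present with similar size in both states (interaction -0.044 ± 0.14, adjusted p = 0.951). The T1 call ended without B10 T1 replicate 2 (0.63, adjusted p = 0.0688) or NOD T1 replicate 3 (0.57, adjusted p = 0.0720), each of which leaves 1 array in a group. It also ended when only the T1 arrays were fitted (adjusted p = 0.0953). At T1, 3.6% of all genes were called, 1.77% higher in NOD and 1.83% lower, and at an unadjusted p of 0.05 5 members passed (16.4% of all genes did). The T1 values of Wdr12 did not pass (-0.043 ± 0.14, adjusted p = 0.922), nor did those of Polr1b (-0.17 ± 0.10, adjusted p = 0.476).

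Many of the other members were a little lower in NOD at T1 without passing. The median difference was -0.049, against 0.0091 over all genes. Both NOD T1 arrays lay below both B10 T1 arrays for 17 members, or 40.5%, while this was so for 20.2% of all genes. They lay above them for 5 members, against 21.6% of all genes. Nip7 had the lowest value, with 10.32 and 10.34 in NOD against 10.72 and 10.67 in B10 (-0.37, adjusted p = 0.144). The counts depended on the scaling. With every array shifted to the same 75th percentile, 11 members were lower without overlap (26.2%, against 15% of all genes). Under that shift 10 were higher (23.8%, against 27% of all genes), and the median was -0.0059 against 0.052 over all genes. Such a shift moves the members and all genes alike, so the gap between their medians stayed the same. The share of members that were lower remained above that of all genes, and the share that were higher remained below it.

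**Figure D3:**
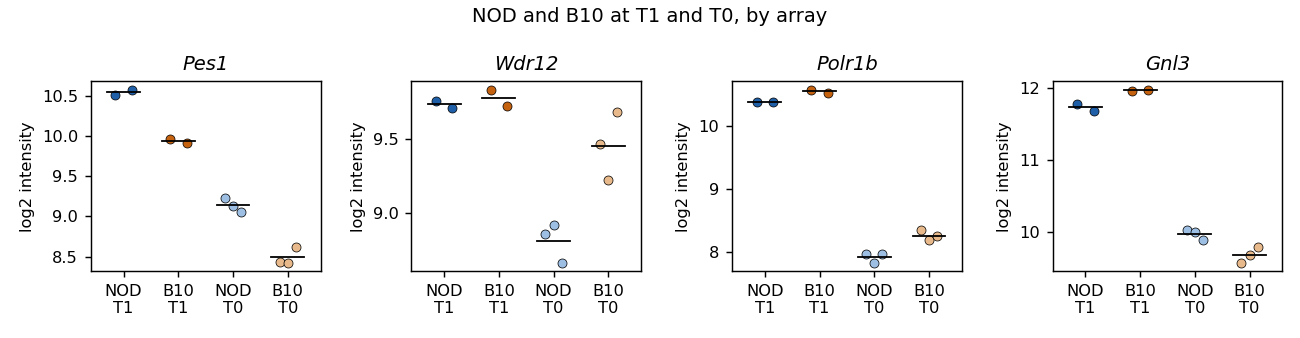
Log2 intensity on each array of Pes1, Wdr12, Polr1b and Gnl3, with NOD beside B10 at T1 and at T0; bars are group means and each panel has its own vertical range. Pes1 is higher in NOD at T1 and T0, Wdr12 and Polr1b are lower in NOD at T0, and Gnl3, which did not pass, is higher in NOD at T0 and lower at T1.

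Red cell genes moved with strain in these arrays. The summed linear intensity of the 4 measured erythroid markers (of 6 listed) was 6801 to 8352 in NOD at T1 and 5897 to 8825 in NOD at T0, against 917 to 3509 in B10 at T1 and 603 to 3205 in B10 at T0. All 4 were called higher in NOD at T0 and 0 at T1, where limma gave 4 at an unadjusted p of 0.05. The 6 measured monocyte and macrophage markers summed to 2615 to 3078 in NOD and 1774 to 2224 in B10 at T0, with 3 called higher. The 6 neutrophil markers summed to 907 to 1224 in NOD and 512 to 748 in B10 at T0, with 3 called higher. The 4 natural killer cell markers summed to 153 to 167 in NOD and 191 to 233 in B10 at T0, with 2 called lower, and 1 was called lower at T1. Of the 7 measured proliferation markers, 3 were called higher in NOD at T0 and 0 at T1, where limma gave 5 at an unadjusted p of 0.05. The part of the monocyte, neutrophil, natural killer and proliferation markers in the strain differences of the members was not tested. In these bulk samples, fewer cells of a type and less RNA per cell cannot be told apart. With the mean of Alas2, Klf1 and Car2 as a covariate, all strain calls of members ended. The summed erythroid markers did not overlap between strains, so this fit separates strain from the covariate poorly. Pes1 then had values of 0.55 at T0 (adjusted p = 0.182) and 0.52 at T1 (adjusted p = 0.229), Wdr12 of -0.80 at T0 (adjusted p = 0.0977) and Polr1b of -0.36 at T0 (adjusted p = 0.479), each in the same direction as without the covariate. Over all genes, 136 were called at T0 in that fit, against 1155 in the fit without it.

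Markers of other cell types also moved with stimulation. The 6 measured B cell markers (of 7 listed) summed to 1093 to 1192 in NOD at T1 against 3080 to 3721 at T0, and to 1170 to 1218 in B10 at T1 against 2708 to 3240 at T0, with 5 called lower in each strain. The 6 monocyte and macrophage markers summed to 822 to 969 in NOD at T1 against 2615 to 3078 at T0, and to 782 to 844 in B10 at T1 against 1774 to 2224 at T0, with all 6 called lower in each strain. The 6 measured CD4 T cell markers summed to 5370 to 6508 in NOD at T1 against 10983 to 11770 at T0, and to 6732 to 6865 in B10 at T1 against 11927 to 12232 at T0. Of these 6, 4 were called lower in each strain, while 1 was called higher in NOD and 0 in B10. Cd5 had the highest value in NOD (0.46) and Cd28 in B10 (0.22). For none of the 7 proliferation markers did the change with stimulation pass in limma, at an adjusted or an unadjusted p of 0.05. The part of these shifts in the rise of the ribosome biogenesis genes was not tested. No detection calls were used, so none of these markers can be said to be absent.

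Further genes of the same pathway, listed apart from the members, mostly moved in the same direction. Their lists too were chosen with earlier results known. Of 39 other measured factors of the small subunit, 35 rose and 0 fell in NOD (median 0.98) and 38 rose and 0 fell in B10 (median 1.20). Pwp2, a processome subunit, had the largest rise (2.43 in NOD, 2.45 in B10), and the helicase Ddx52 the smallest value (0.020 and 0.17). Of 42 other large subunit factors, 37 rose and 1 fell in each strain (medians 1.13 and 1.19). The largest rise was that of Rrp15 in NOD (2.37) and of Mrto4 in B10 (2.66), both large subunit assembly factors. The gene that fell was Sbds, which acts in the last cytoplasmic step of large subunit maturation (-0.38 in NOD, adjusted p = 0.00534, and -0.41 in B10, adjusted p = 0.00286). Of 12 other snoRNP genes, 11 rose in each strain, with Znhit6 largest in NOD (2.25) and Naf1 in B10 (2.57), and with Pih1d1 lowest (-0.24 and -0.056, neither past the threshold).

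Cofactors of RNA polymerase I changed less than Polr1b, which had the largest rise of the 4 measured subunits among the members. They did not all change less than the other subunits, of which Polr1e rose by 0.98 in NOD and 0.91 in B10, and Polr1a by 0.49 and 0.47. Rrn3, the initiation factor that joins the polymerase to the promoter, rose by 0.98 in NOD and 0.88 in B10. Ubtf, the factor that keeps ribosomal RNA genes open, had values of 0.32 in NOD (adjusted p = 0.0127) and 0.044 in B10 (adjusted p = 0.783). The list of subunits and factors outside the members had 8 measured genes, Ubtf among them. Of these 8, 6 rose and 1 fell in NOD (median 0.55) and 4 rose and 0 fell in B10 (median 0.37). Taf1a had the largest value (1.27 in NOD, 1.51 in B10) and Taf1b the smallest (-0.52, adjusted p = 0.00552, and -0.32, adjusted p = 0.0723), although both belong to the same promoter selectivity factor. Among 13 exosome genes, whose products trim precursor RNA, 9 rose in NOD and 11 in B10, led by the nuclease Dis3 (1.51 and 1.58), with Exosc8 lowest (0.016 and 0.080).

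RNA polymerase III, which makes the smallest ribosomal RNA and transfer RNAs, was mixed. Of its 14 measured genes, 4 rose and 3 fell in NOD and 5 rose and 4 fell in B10. The shares that fell were 21.4% in NOD and 28.6% in B10, beside 19.5% and 18.1% of all genes, and the shares that rose were 28.6% in NOD and 35.7% in B10, beside 16.1% and 13.7% of all genes. Polr3g had the largest rise (1.68 in NOD, 1.81 in B10). Maf1, the repressor of the enzyme, had the largest fall (-1.45 in NOD and -1.72 in B10).

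The ribosomal proteins themselves had smaller median changes than the assembly factors. Of 33 measured large subunit proteins, 3 rose and 0 fell in NOD (median 0.057) and 8 rose and 0 fell in B10 (median 0.15). The share that rose was 9.09% in NOD, where 16.1% of all genes rose, and 24.2% in B10, where 13.7% of all genes rose. Rpl12 had the largest value (1.27 in NOD, 1.46 in B10) and Rpl41 the lowest (-0.20 and -0.24). Of 22 small subunit proteins, 1 rose in NOD (4.55%) and 0 in B10, beside 16.1% and 13.7% of all genes (medians -0.028 and 0.068). At an unadjusted p of 0.05 limma gave 1 in each strain. The share of all genes at that level is not given here. The highest of the 22 was Rps13 (0.30 in NOD, 0.26 in B10), and the lowest was Rps3a1 in NOD (-0.20) and Rps18 in B10 (-0.059). The other listed ribosomal proteins, of 47 for the large and 32 for the small subunit, had no probe set with 1 symbol and were not analysed here.

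**Figure D4:**
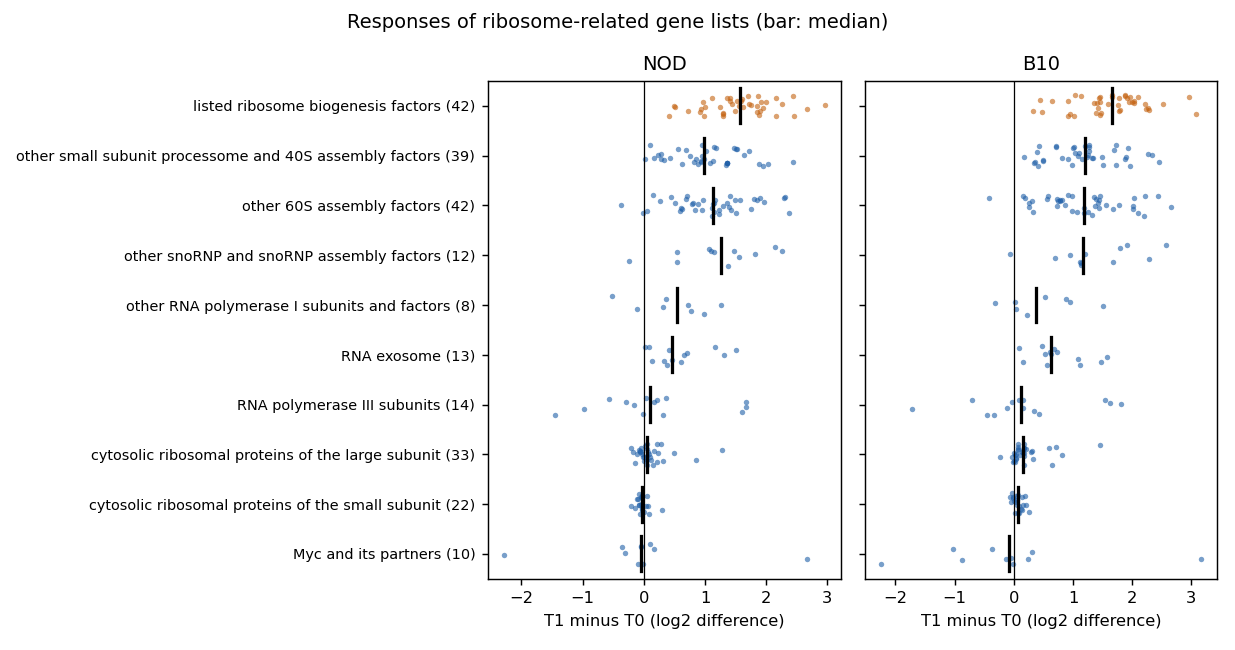
Change with stimulation (T1 minus T0, log2 difference) of each gene, NOD left and B10 right, for the 42 members and 9 other lists, with the number of measured genes in brackets and a bar at each median. The members' medians are 1.57 in NOD and 1.65 in B10, those of the other small and large subunit assembly factors lie near 1, and those of the large and small subunit ribosomal proteins are 0.057 and -0.028 in NOD and 0.15 and 0.068 in B10.

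Myc, the transcription factor known to drive ribosome production, was the gene of its own network that rose. It rose by 2.67 in NOD (adjusted p = 3.73e-09) and 3.17 in B10 (adjusted p = 8.34e-10), to mean levels of 12.8 in NOD and 12.9 in B10 at T1, against 10.1 in NOD and 9.69 in B10 at T0. Of the 10 genes listed for this network, 2 fell in NOD (20%) and 4 in B10 (40%), beside 19.5% and 18.1% of all genes. Mxd4, a repressor that competes for the same partner, had the lowest value (-2.28 in NOD and -2.25 in B10). Mxd1 had values of -0.36 and -1.03. Max, the partner, had values of 0.10 in NOD and -0.0076 in B10 and did not pass. Myc was higher in NOD than in B10 at T0 (0.41, adjusted p = 0.0173), where the members had a median difference of -0.0049.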

How the data were processed

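The authors' deposited values are log2 intensities of 35486 probe sets on 10 arrays; per the submitters' processing notes, Affymetrix Power Tools and RMA were used. Version, options and genome build are not given in the sources used here, and base 2 was taken from how far the values reach. Platform annotation gave 1 symbol for 21789 probe sets, several for 1621 and none for 12076. Each of 19938 genes was represented by its brightest probe set on average. All arrays entered 1 linear model with a mean for each of 4 groups, in limma 3.58.1 in R 4.3.3 (6 residual and 6.30 prior degrees of freedom), with eBayes, two-sided tests and Benjamini-Hochberg adjustment over all genes in each of 5 contrasts at 0.05. The procedure was tested on simulated data. Probe-level signals were not used here. The members, their roles, the other lists and the alternatives were chosen with earlier results of these data known. Members shown array by array were those with the largest mean response in each role, those called between strains and those not called with stimulation, with Gnl3, Grwd1, Polr1a, Nop14, Npm1 and Nip7 added after their values were seen. Figures were drawn with matplotlib 3.10.9.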

Additional observations from a re-analysis of the deposited data

How the results depend on the processing

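Each of the 5 comparisons was repeated under up to 21 alternatives: a common 75th percentile, the mean of a gene's probe sets, every probe set, a filter on dim genes, a robust eBayes with a trend, weights per array, fits of the compared arrays alone, replicate blocks, omission of each array, omission of both B10 arrays of number 3, and the erythroid covariate. Stimulation called 42 of 42 members higher in NOD under all of them, and 41 or 42 in B10, where Wdr12 alone changed its call. The interaction called 0 members under all of them. At T0 the count of 3 ranged from 2 to 4, and was 0 with the erythroid covariate, which is poorly separated from strain. It was 2 to 3 over omissions of single arrays. At T1 the count of 1 became 0 with only the arrays compared and with the erythroid covariate, and was 0 to 1 over omissions. No call changed sign. Replicate numbers repeat across states. Deviations from group means correlated between T1 and T0 arrays of the same number at 0.41 and 0.40 in B10 but at -0.014 and 0.22 in NOD, so the numbers were not taken as pairs. With replicate number as a fixed block, 42 members rose in NOD and 41 in B10, 2 differed at T0 (Polr1b lost its call, adjusted p = 0.0603 in limma) and 1 at T1. With a random block the counts were 42, 41, 3 and 1. The common 75th percentile moved the median of all genes in NOD to 0.21, and that of the members to 1.69. Over all genes, calls at T0 were 2316 with array weights, 571 to 1306 over omissions and 136 with the erythroid covariate, against 1155. Calls at T1 were 292 with array weights, 184 to 889 over omissions and 128 both with only the arrays compared and with the covariate, against 718. Calls for the interaction were 102 with the trend, 80 with the covariate, 31 with array weights and with the common percentile, and 13 to 69 over omissions, against 49. The few arrays limit what can be resolved.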

Other observations

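A few related genes outside the members differed between strains in both states. Exosc9, an exosome subunit, was lower in NOD than in B10 at T1 (-0.64, adjusted p = 0.0100 by limma) and at T0 (-0.39, adjusted p = 0.0262). Emg1, a methyltransferase of the small subunit RNA, was lower in NOD at T1 (-0.61, adjusted p = 0.00549) and at T0 (-0.40, adjusted p = 0.0106). Rpl34, a large subunit ribosomal protein, had the largest strain difference of the ribosomal protein lists, with -1.42 at T1 (adjusted p = 0.000239) and -0.98 at T0 (adjusted p = 0.000422). Rps19, a small subunit protein, was lower in NOD at T1 (-0.71, adjusted p = 0.0143) and at T0 (-0.42, adjusted p = 0.0438). The ribosomal protein lists as a whole were also lower in NOD. At T1 the median was -0.21 for the 33 large subunit proteins and -0.21 for the 22 small subunit proteins, against 0.0091 over all genes. At T0 these medians were -0.12 and -0.13, against -0.015 over all genes. Shifting whole arrays, as was done for the members, would leave the gap to all genes the same. How far the lower medians depend on other scalings was not tested. Exosc9, Emg1, Rpl34 and Rps19 were chosen after their values were seen. Whether sequence differences between the strains under the probes changed their signals was not tested.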
